A study of Mus musculus with 48 samples.

Results

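V(D)J recombination in the Igκ locus joins a Vκ segment to a Jκ segment, and HTGTS-JoinT-seq lists the positions that were joined to a bait end at Jκ1. The junctions described here are the few in the Vκ region that lay away from the break sites set by a rule of counts. They lie in 3160001 bp of mouse chromosome 6, over 200 bp from every site. A site is a position with 30 or more junctions pooled over the 9 STI-571-treated WT libraries of the signal end bait, with no position within 50 bp holding more. This gave 248 sites, the first at 67506211 and the last at 70659262 (mm9). Gene annotation was not used, and the sites at 67626692 and 68289990 lie 44031 and 36836 bp from the nearest annotated gene. With a limit of 10 junctions there would be 385 sites, so less used break sites can be among the off-site places. The off-site junctions numbered 57742 of the 7265223 junctions in this span (0.795%), and of the 8250887 junctions in all 48 libraries. Counted once per library by prey position, strand, bait end and overlap or insertion, they made 7203 distinct joints at 4888 positions. The members were thus chosen by the junction counts of those 9 WT signal end libraries, so values of that group are descriptions only. A place joined often in WT cells became a site, while one joined often only in Ku70-/- cells stayed off-site. The rule can thus lower WT counts with either bait, and the size of genotype differences depends on the site limit. At the limits of the rule, 3 further local maxima held 29 junctions and 4 sites held exactly 30, and 30 junctions lay exactly 200 bp from a site and another 30 lay 1 bp further out.

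The libraries come from mouse vAbl cells, progenitor B cells transformed by the Abelson kinase. Each of 16 groups has 3 libraries, a combination of genotype (WT or Ku70-/-), bait (JK1CE, the Jκ1 coding end, or JK1SE, the Jκ1 signal end) and treatment. The treatments are cycling, with no arrest, and arrest in STI-571 (3 μM, 96 h), an inhibitor of the Abelson kinase, with DMSO, with L67 (5 μM) or with L82-G17 (25 μM), both DNA ligase inhibitors. Each genotype is a single clonal line in the study's methods, so loss of Ku70 and other differences between the lines cannot be told apart. The study describes its experiments as biological repeats, the labels do not tie a library to a culture, and p-values measure the spread between these libraries.

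RAG1/2 cuts beside a recombination signal sequence that begins with the heptamer CACAGTG, leaving a hairpin coding end and a blunt signal end. In WT cells Ku, of which Ku70 is a subunit, holds such ends for nonhomologous end joining (NHEJ), which trims little. Without Ku the ends are open to nucleases and are joined by alternative end joining (A-EJ), which often uses short stretches of sequence shared by the ends (microhomology).

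Libraries held from 8294 to 385847 junctions. 1 library of each bait in Ku70-/- cells stood apart, replicate 1 of STI-571 with DMSO. It held 927 distinct joints in the span with JK1CE against 12470 and 13386 in the other replicates, and 965 against 10973 and 13710 with JK1SE. Its junctions in the span were fewer by less, 96095 against 115374 and 110991 with JK1CE and 142319 against 145793 and 150798 with JK1SE. Results that use it are given with and without it where the call or the size differs clearly.

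Sequences show that the off-site junctions were of unlike kinds. The first kind is 1 joint, the same to the base, in library after library. These 4 are among those found in most libraries, each written from the bait end to the prey, with inserted bases or the overlap in capitals.
Ku70-/- JK1CE, prey 69598454, minus strand, 12 of 12 libraries: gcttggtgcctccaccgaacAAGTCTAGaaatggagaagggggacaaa
Ku70-/- JK1CE, prey 70114072, minus strand, 11 libraries: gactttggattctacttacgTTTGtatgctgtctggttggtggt
Ku70-/- JK1CE, prey 70027025, plus strand, 11 libraries: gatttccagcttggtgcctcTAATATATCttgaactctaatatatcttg
Ku70-/- JK1SE, prey 69537856, plus strand, 11 libraries: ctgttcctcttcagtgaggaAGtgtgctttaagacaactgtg
The second kind is a stretch of genome where many different joints ended. Here are 4 such places (mm9, plus strand), with capitals for the bases kept as prey at the most used position.
chr6:67863497-67863556: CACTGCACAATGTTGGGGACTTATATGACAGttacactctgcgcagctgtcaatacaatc
chr6:68289453-68289512: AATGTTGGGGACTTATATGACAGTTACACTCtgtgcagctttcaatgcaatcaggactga
chr6:67591170-67591229: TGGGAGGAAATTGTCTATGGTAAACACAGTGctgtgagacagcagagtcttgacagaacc
chr6:67631638-67631697: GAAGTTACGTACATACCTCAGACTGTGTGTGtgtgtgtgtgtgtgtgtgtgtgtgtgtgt
The third kind carries long insertions before a prey with many mismatches. It was a larger part of the off-site junctions in arrested WT JK1CE libraries than in the other arrested classes. By number, insertions of 12 or more bases before any prey, mismatched or not, held 442 junctions (251 different joints) there. They held 489 (71) in arrested Ku70-/- JK1CE libraries, so these are not all of the third kind. The 489 include a joint of the first kind, at 70522154 with a 19-bp insertion, with a median of 22 junctions (0 to 36) in an arrested library. The commonest joint with an insertion of 12 or more bases in the cluster at 69292485, with 14 junctions, is written below from bait to prey, with the insertion in capitals.
WT-led cluster at 69292485: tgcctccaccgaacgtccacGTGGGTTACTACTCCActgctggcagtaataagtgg

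Off-site junctions were rare in WT cells and more frequent in Ku70-/- cells. With JK1CE and DMSO, WT libraries held 242, 186 and 205 of them and Ku70-/- libraries held 1825, 2680 and 2439. With L67 the counts were 241, 224 and 246 in WT and 3293, 2840 and 3782 in Ku70-/- cells. With L82-G17 they were 89, 99 and 142 in WT and 2660, 2569 and 2468 in Ku70-/- cells. Every Ku70-/- library lay above every WT library of its treatment. As a share of the span's junctions, the mean was 0.0600% ± 0.0065 (SD, n = 3) in WT and 2.14% ± 0.22 in Ku70-/- cells with DMSO, 0.0713% ± 0.0022 and 2.64% ± 0.34 with L67, and 0.0594% ± 0.0111 and 2.39% ± 0.10 with L82-G17. The share differed by 2.33 percentage points on average over the 3 treatments (exact two-sided permutation test within treatments, p = 0.00025, the smallest that 8000 arrangements allow; Benjamini-Hochberg adjusted p over the 19 planned tests = 0.000792). It was 1.88 points with sites set at 10 junctions, 2.74 with 300 and 1.25 with only junctions over 1000 bp from every site. The number of off-site junctions was higher by 3.94 on the log2 scale (exact permutation p = 0.00025, adjusted p = 0.000792). It was higher by 4.14 with sites set at 10 junctions, by 2.41 with 300 and by 3.21 over 1000 bp from sites. Without mismatched prey (over 1 mismatch per 100 aligned bases, left out after seeing the data) it was higher by 4.57. All of these alternatives kept an exact permutation p of 0.00025.

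The difference was smaller by distinct joints than by junctions. Distinct off-site joints numbered 97, 82 and 78 in WT libraries with DMSO and 26, 379 and 315 in Ku70-/- libraries, where 26 belongs to the library of few distinct joints. With L67 they were 101, 83 and 106 in WT and 538, 387 and 383 in Ku70-/- cells. With L82-G17 they were 30, 34 and 81 in WT and 392, 328 and 391 in Ku70-/- cells. The groups overlapped only with DMSO. The log2 difference was 2.01 (exact permutation p = 0.0015, adjusted p = 0.00356), and 2.42 without the library of few distinct joints. It was 2.43 with sites set at 10 junctions (exact permutation p = 0.001) and 0.87 with 300 (exact permutation p = 0.0608). Over 1000 bp from sites it was 1.36 and without mismatched prey 3.21. 1 off-site joint was written down a median of 7.34 times in an arrested Ku70-/- JK1CE library and 2.49 times in an arrested WT JK1CE library.

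**Figure D1:**
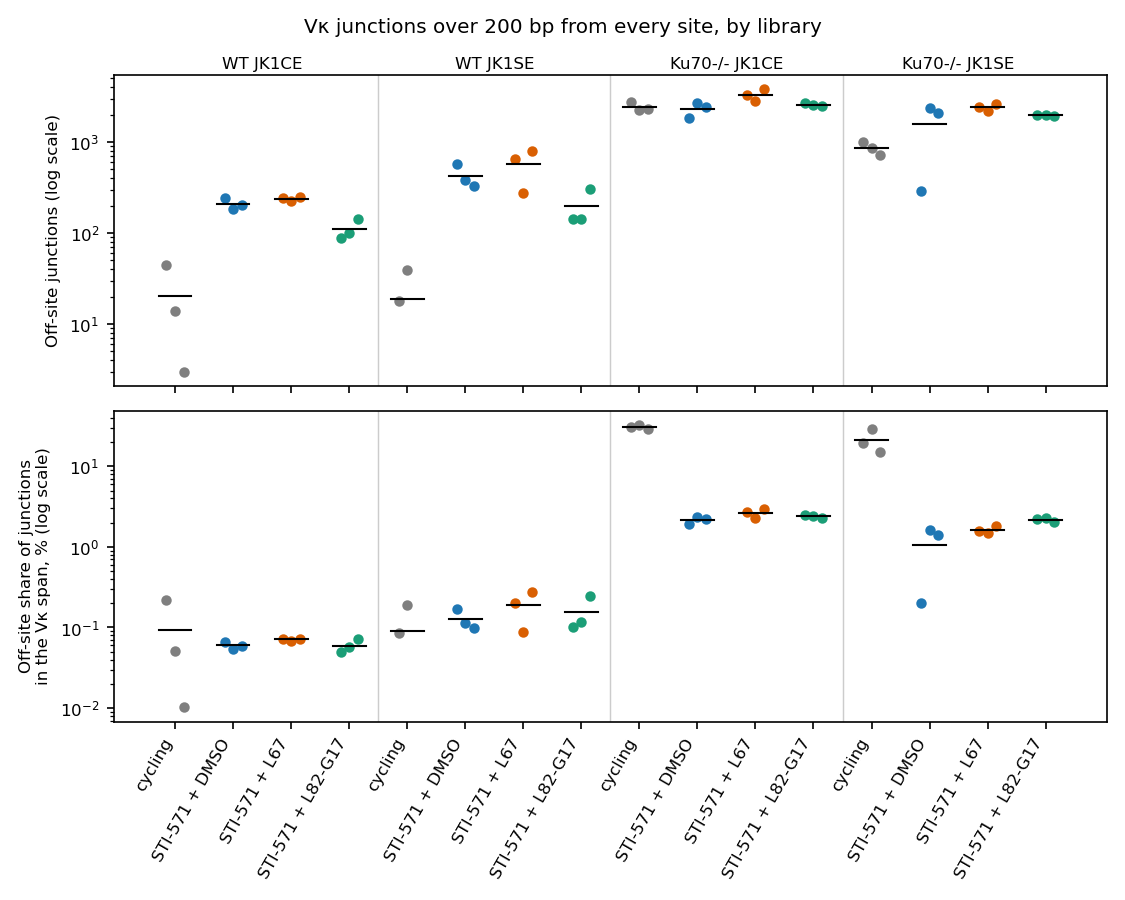
Off-site junctions (top) and their share of all junctions in the Vκ span (bottom) in each of 48 libraries, both on log axes, by genotype, bait and treatment. Points are libraries and bars are means of 3. Ku70-/- libraries with JK1CE lie above all WT libraries of the same treatment, and cycling Ku70-/- libraries have the highest shares. 1 cycling WT JK1SE library with 0 off-site junctions has no point.

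The share was far higher in cycling than in arrested Ku70-/- cells, while the number of off-site junctions was not. With JK1CE, cycling Ku70-/- libraries held 2785, 2253 and 2283 off-site junctions, within the range of the arrested libraries (1825 to 3782). Junctions near sites ranged from 4723 to 6216 in the cycling libraries and from 94270 to 125697 in the arrested ones. So the off-site share was 30.8% ± 1.6 (SD, n = 3) in cycling and 2.14% ± 0.22 in arrested DMSO libraries. With JK1SE, cycling Ku70-/- libraries held 989, 854 and 720 off-site junctions and shares of 19.6%, 29.2% and 15.1%. The arrested DMSO libraries held 287, 2351 and 2097, with shares of 0.202%, 1.61% and 1.39%, and 287 belongs to the library of few distinct joints. Cycling WT libraries gave only 44, 14 and 3 off-site junctions with JK1CE and 18, 39 and 0 with JK1SE. Their 12 and 5 distinct joints allow no description of structure.

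Between genotypes, the share in cycling cells differed by 25.9 percentage points over both baits (exact permutation p = 0.005, the smallest that 400 arrangements allow, adjusted p = 0.00840). Arrested and cycling cells differed by -14.3 percentage points with JK1CE over both genotypes (exact permutation p = 0.05, adjusted p = 0.0559). That mean joins a fall of 28.6 points in Ku70-/- cells, without overlap, and values in WT cells that overlapped. With JK1SE in Ku70-/- cells the difference was -20.2 points, also without overlap, in a design of 3 against 3 that cannot go below an exact p of 0.1 (adjusted p = 0.106). As shares of all junctions of a library, not of those in the span, these 3 differences were smaller, 13.0, -8.24 and -7.20 points. Over 1000 bp from every site the first was 16.7 and the last -12.6.

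The share in arrested Ku70-/- cells was lower with JK1SE than with JK1CE, by 0.77 percentage points (exact permutation p = 0.00025, adjusted p = 0.000792) and without overlap in any treatment. This test takes the baits as separate samples, though they may share DNA. The difference was -0.664 without the library of few distinct joints of each bait (exact permutation p = 0.000833). It was -0.470 over 1000 bp from sites (exact permutation p = 0.0103). The means with JK1SE were 1.07% ± 0.76 with DMSO, 1.63% ± 0.19 with L67 and 2.17% ± 0.14 with L82-G17 (SD, n = 3). Arrested WT JK1SE libraries, which chose the sites, had shares from 0.0882% to 0.274%.

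The ligase inhibitors went with small differences in the off-site share. The tests that follow, like that of the genotypes in cycling cells, count both baits of a genotype as separate samples, but the methods do not say that their DNA was separate, and the library of few distinct joints has the same replicate number with both. If the baits share DNA these p-values are too small. Averaged over WT JK1CE, Ku70-/- JK1CE and Ku70-/- JK1SE, the share with L67 was 0.356 percentage points above that with DMSO (exact permutation p = 0.0325, adjusted p = 0.0386). Without the library of few distinct joints of each bait it was 0.171 (exact permutation p = 0.12). Libraries overlapped in both Ku70-/- comparisons, and not in WT. With L82-G17 the difference was 0.453 (exact permutation p = 0.00775, adjusted p = 0.00990), and 0.268 without those libraries (exact permutation p = 0.0155). It was 1.10 in Ku70-/- JK1SE, 0.25 in Ku70-/- JK1CE and -0.00052 in WT JK1CE, and the last 2 overlapped. Without the library of few distinct joints the Ku70-/- differences were 0.67 with JK1SE, still without overlap, and 0.13 with JK1CE. In Ku70-/- JK1SE the off-site junctions numbered 1975, 1997 and 1927 with L82-G17 and 287, 2351 and 2097 with DMSO, where 287 belongs to that library. Junctions near sites ranged from 85988 to 93849 with L82-G17 and from 142032 to 148701 with DMSO. So the higher share there went with fewer junctions near sites and not with more off-site junctions than in the other DMSO libraries. Averaged as before and with each distinct joint counted once, the difference was 0.291 (exact permutation p = 0.129). With only junctions over 1000 bp from every site it was 0.195 (exact permutation p = 0.288).

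The genotypes also differed in how far from the sites, and on which strand, off-site junctions lay. If a site's end is trimmed before it is joined, the junction falls on the side of the break that the prey comes from, and the prey reads away from the site. Of the bases that could hold an off-site junction, 10.1% lie within 1 kb of a site. A median of 41.9% of the off-site junctions of an arrested Ku70-/- JK1CE library lay there (lowest 34.0%, highest 80.1%), against a median of 14.8% in WT (lowest 6.06%, highest 24.4%). The difference was 31.2 percentage points (exact permutation p = 0.00025, adjusted p = 0.000792), with no overlap in any treatment. That highest value is that of the library of few distinct joints, and the difference was 27.0 without it. Within 2 kb it was 20.7 (exact permutation p = 0.002).

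Of the off-site junctions within 1 kb, a median of 85.1% in arrested Ku70-/- JK1CE libraries were on the side and strand that trimming of the site can give (lowest 77.9%, highest 100%). In WT JK1CE libraries the median was 29.2% (lowest 0.0%, highest 58.3%), from 267 junctions in all 9 libraries against 10918. The difference was 56.6 percentage points (exact permutation p = 0.00025, adjusted p = 0.000792). It was 48.7 with each distinct joint counted once. Pooled over libraries, 84.6% of the distinct joints within 1 kb in Ku70-/- and 41.6% in WT cells were on that side and strand. Prey with no tie to a site would fall on both strands alike, so part of the difference is the low WT share. Distinct joints on the trimming side and strand thinned out with distance. Over the 9 arrested Ku70-/- JK1CE libraries their density was 8.59 per kb of sequence up to 300 bp from a site, 3.83 from there to 500 bp, 2.27 to 1000 bp, 1.55 to 2000 bp, 0.444 to 5000 bp and 0.196 beyond. On the other strand the density was 0.879 up to 300 bp and 0.175 beyond 5000 bp, so the strands were far apart close to sites and nearly level far from them. JK1SE gave the same course, from 6.69 to 0.117 on the trimming strand and from 0.744 to 0.131 on the other. Arrested WT cells with JK1SE, the libraries that chose the sites, had 0.180 on each strand up to 300 bp, and from 0.180 to 0.211 on the trimming strand up to 2000 bp.

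**Figure D2:**
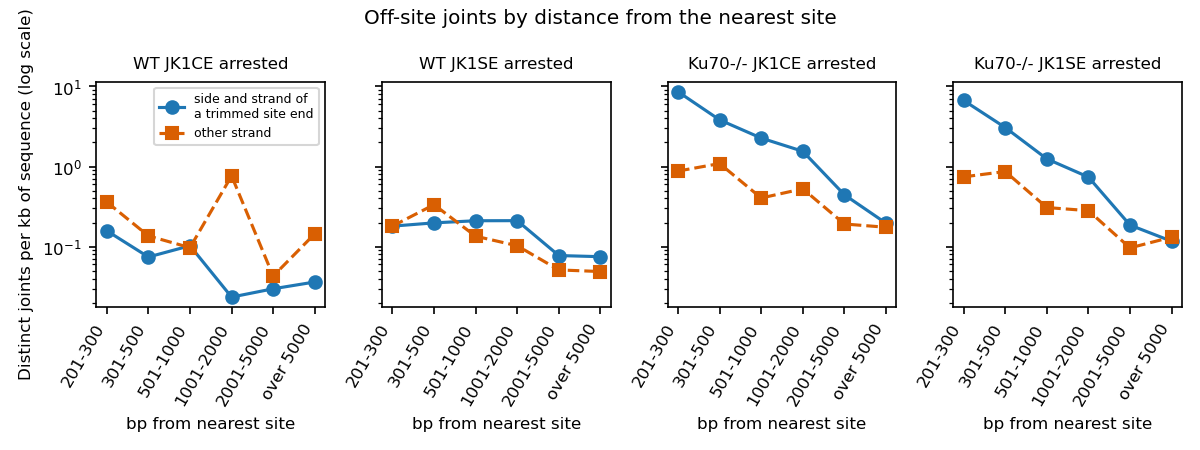
Distinct off-site joints per kb of off-site sequence (log axis) against distance from the nearest site, for arrested libraries of each genotype and bait (9 libraries each, summed). Blue circles are joints on the side and strand of a trimmed site end and orange squares are the others. In Ku70-/- cells the blue line starts at 8.59 (JK1CE) and 6.69 (JK1SE) and meets the orange line beyond 5000 bp. In WT JK1CE the orange peak between 1000 and 2000 bp (0.765) holds the cluster at 69292485.

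These strands came from both ends of the break. Among distinct joints within 1 kb on the trimming strand in arrested Ku70-/- cells, 47.9% with JK1CE and 57.9% with JK1SE were on the coding side of their site, and the rest on the signal side. In cycling Ku70-/- cells 43.4% and 44.6% were. Among all off-site junctions with JK1CE, the plus strand share was 38.5% in arrested Ku70-/- and 51.4% in WT cells, as means of the treatment means. The difference of -12.9 points (exact permutation p = 0.00575, adjusted p = 0.00840) turned to 11.9 (exact permutation p = 0.0182) when prey alignments with over 1 mismatch per 100 bases were left out, an alternative chosen after seeing the data. Other settings moved it both ways. It was -28.8 with each distinct joint counted once and -26.7 with sites of 300 junctions (exact permutation p = 0.00025 for each). It was -5.06 with sites of 10 junctions (exact permutation p = 0.420), -6.68 without the largest cluster (exact permutation p = 0.21) and -13.0 over 1000 bp from sites (exact permutation p = 0.0703). Without the library of few distinct joints it was -10.3.

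Joint structure differed between off-site and near-site junctions as well as between genotypes. Joints found in both cycling and arrested libraries, described below, are a larger share of the off-site junctions in arrested Ku70-/- JK1CE cells. Their part in this difference was not tested. An overlap of bait and prey on the read counts as microhomology, a gap as an insertion, and neither as a direct joint. A median of 37.6% of off-site junctions in arrested Ku70-/- JK1CE libraries had microhomology over 1 bp (lowest 2.58%, highest 44.8%), against 17.9% of junctions near sites (lowest 11.7%, highest 22.2%). Off-site was higher by 16.2 percentage points and in 8 of 9 libraries (exact sign-flip permutation p = 0.00781, adjusted p = 0.00990), the exception being the library of few distinct joints. Without that library the difference was 19.4 points. Counting overlaps of 1 bp or more in all 9 libraries, off-site was higher by 5.30 points (exact permutation p = 0.309). With JK1SE it was higher by 24.3 points and in 9 of 9 libraries (exact permutation p = 0.00391, adjusted p = 0.00742). In that bait 98.6% of the off-site junctions of the library of few distinct joints had microhomology, and the difference was 17.8 without it. In WT JK1CE libraries the difference was 4.85 points, in 9 of 9 libraries (exact permutation p = 0.00391, adjusted p = 0.00742), from 2.47% near sites to 7.32%. It was 2.00 with each distinct joint counted once (exact permutation p = 0.117), 1.16 with sites set at 300 junctions and 9.09 without mismatched prey.

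Overlaps of 3 bp and more made up much of the surplus. In arrested Ku70-/- JK1CE libraries, pooled, overlaps of 3, 4 and 5 or more bp held 11.1%, 7.23% and 4.45% of off-site junctions, against 3.87%, 1.83% and 1.96% near sites. Direct joints went the other way, 29.4% off-site against 50.9% near sites. Insertions were 17.3% off-site against 2.40% near sites, and the longest was 28 bp. These pooled values include the library of few distinct joints. Without it the means of libraries were 25.3% off-site against 51.1% near sites for direct joints and 18.4% against 2.56% for insertions. In cycling Ku70-/- cells direct joints were fewer still, 11.0% of off-site junctions with JK1CE and 5.46% with JK1SE. WT JK1SE junctions, nearly all direct near sites (93.9%), were direct in 37.4% of off-site cases, with a 1-bp overlap in 21.8% and a 2-bp overlap in 16.4%.

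**Figure D3:**
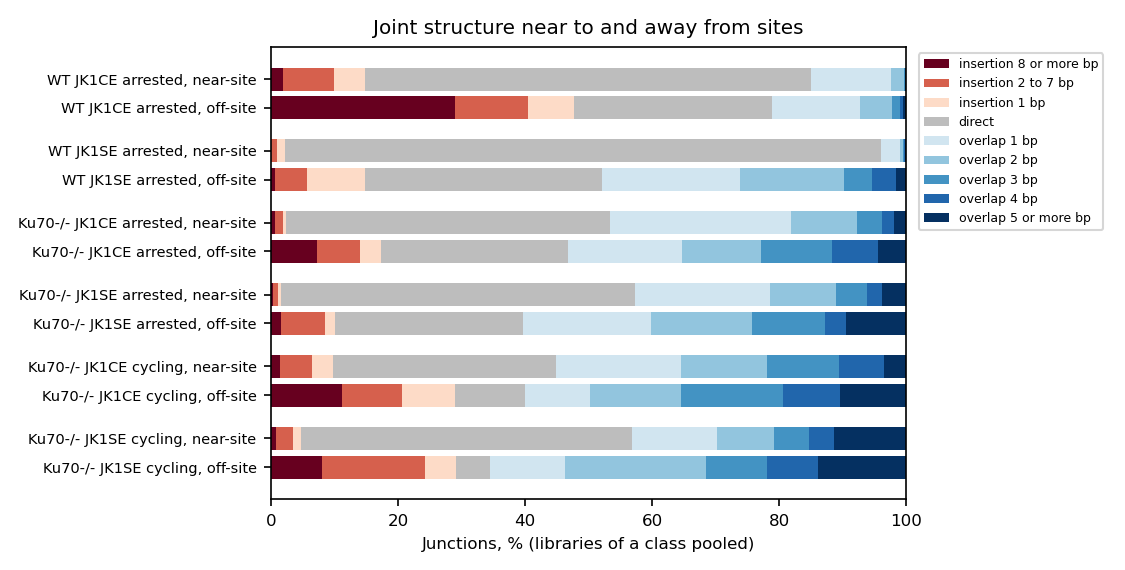
Share of junctions (percent, libraries of a class pooled) by joint structure, for junctions within 200 bp of a site and off-site, in the arrested classes and in cycling Ku70-/- cells. Red shades are insertions, grey is direct and blue shades are overlaps of growing length. Off-site bars have less grey and more blue in every class, from 14.9% to 21.1% in WT JK1CE, which also has 28.97% insertions of 8 or more bp.

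Between genotypes with JK1CE, microhomology over 1 bp was higher in arrested Ku70-/- than in WT off-site junctions by 27.0 percentage points (exact permutation p = 0.001, adjusted p = 0.00271). The WT libraries ranged from 3.52% to 11.2%, and every Ku70-/- library but that of few distinct joints, at 2.58%, lay above them. Without that library the difference was 31.1 points. Direct joints differed by -1.10 points (exact permutation p = 0.960, adjusted p = 0.960), with an average of 31.1% in Ku70-/- and 32.2% in WT cells. This value rests on the library of few distinct joints, where 77.7% were direct. Without it the difference was -7.26 (exact permutation p = 0.00075), and with distinct joints counted once it was 8.73 (exact permutation p = 0.00075). Insertions were lower in Ku70-/- cells by 29.3 points, 16.8% against 46.1% (exact permutation p = 0.00025, adjusted p = 0.000792), and by 47.8 points with each distinct joint counted once.

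The insertions of WT JK1CE cells went with poorly matching prey. In arrested WT JK1CE libraries, 41.9% of off-site junctions had a prey with over 1 mismatch per 100 aligned bases (lowest library 24.7%, highest 51.4%), against 13.4% near sites. In the other arrested classes off-site and near-site values were alike, 8.68% and 8.98% in Ku70-/- JK1CE, 8.12% and 8.61% in Ku70-/- JK1SE and 8.12% and 9.03% in WT JK1SE. Of the 701 mismatched WT JK1CE junctions 87.9% had an insertion, and of the other 973 it was 18.8%. When mismatched prey were left out, the genotypes differed in insertions by -1.67 points (exact permutation p = 0.666), while the difference in microhomology stayed at 23.2 points (exact permutation p = 0.001). Insertions of 12 or more bases occurred in 251 joints of arrested WT JK1CE libraries that differed in position, bait end or inserted bases, and the inserted bases of 165 of them stand, whole and on either strand, within 60 bp of one of the 248 sites. This held for 14 of 71 in arrested Ku70-/- JK1CE and for 19 of 40 in arrested Ku70-/- JK1SE libraries. Whether the prey of these reads were placed at their true origin was not tested.

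The bait end was also trimmed differently. In WT JK1SE libraries 94.5% of arrested near-site junctions kept the whole signal end, and 19.5% of the off-site ones did. In WT JK1CE libraries the values were 40.9% and 35.9%. In arrested Ku70-/- cells few ends were whole in either place, 0.776% near sites and 5.72% off-site with JK1CE, and 7.84% and 2.61% with JK1SE. The median loss from the bait end in Ku70-/- cells was 15 bp near sites and 19 bp off-site with JK1CE, and 12 and 19 bp with JK1SE.

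Many off-site junctions of Ku70-/- cells were repeats of the same joints across libraries. With JK1CE, 152 joints, identical in prey position, strand, bait end and overlap, were found both in a cycling and in an arrested library. They held 1864, 1572 and 1380 junctions in the cycling libraries, 66.9%, 69.8% and 60.4% of the off-site junctions there. In the 8 arrested libraries other than the one of few distinct joints they held 775 to 1105 junctions (29.2% to 39.8%), and in that one 67. A further 87 joints were in 2 or more arrested libraries, 8 in 2 or more cycling libraries and 2709 in 1 library. Near sites, joints found in both states made up 75.5% to 80.3% of the junctions of cycling libraries and 3.90% to 5.78% of those of arrested libraries. Near sites these cycling libraries held 4723 to 6216 junctions and the arrested ones 94270 to 125697. The shares thus have unlike totals and do not compare the numbers of shared junctions. In arrested WT libraries the near-site share was 78.5% to 79.8% with JK1CE and 91.8% to 94.3% with JK1SE. Off-site it was 2.15% to 7.87% in arrested WT JK1CE libraries.

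With JK1SE, 58 joints were in both states. They held 40.3% to 49.3% of off-site junctions in cycling Ku70-/- libraries and 10.4% to 23.2% in the arrested ones other than the library of few distinct joints, where they held 0. Joints recurred in WT cells too. Of the WT JK1CE joints, 100 were in 2 or more arrested libraries (566 junctions), 7 in both states (88) and 345 in 1 library (1081). Of the WT JK1SE joints, 19, 1 and 486 were. With JK1CE, 3 off-site joints were found in both genotypes, 0.664% of the 452 in WT and 0.101% of the 2956 in Ku70-/- cells, and with JK1SE 2 were (0.395% of 506 and 0.108% of 1854). Near sites the genotypes shared 2465 joints with JK1CE (7.62% of the WT and 3.27% of the Ku70-/- joints) and 1775 with JK1SE (22.8% and 2.79%). Among the 152 shared JK1CE joints 56.6% had microhomology over 1 bp and 5.92% were direct, against 35.5% and 28.02% among the joints of 1 library. Their median distance from a site was 1472.5 bp, and 88.1% of those within 1 kb were on the trimming strand. In 1 arrested library, replicate 1 of L82-G17 with JK1SE, 960 junctions (48.6%) belonged to joints found in 2 or more arrested libraries and in no cycling one.

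**Figure D4:**
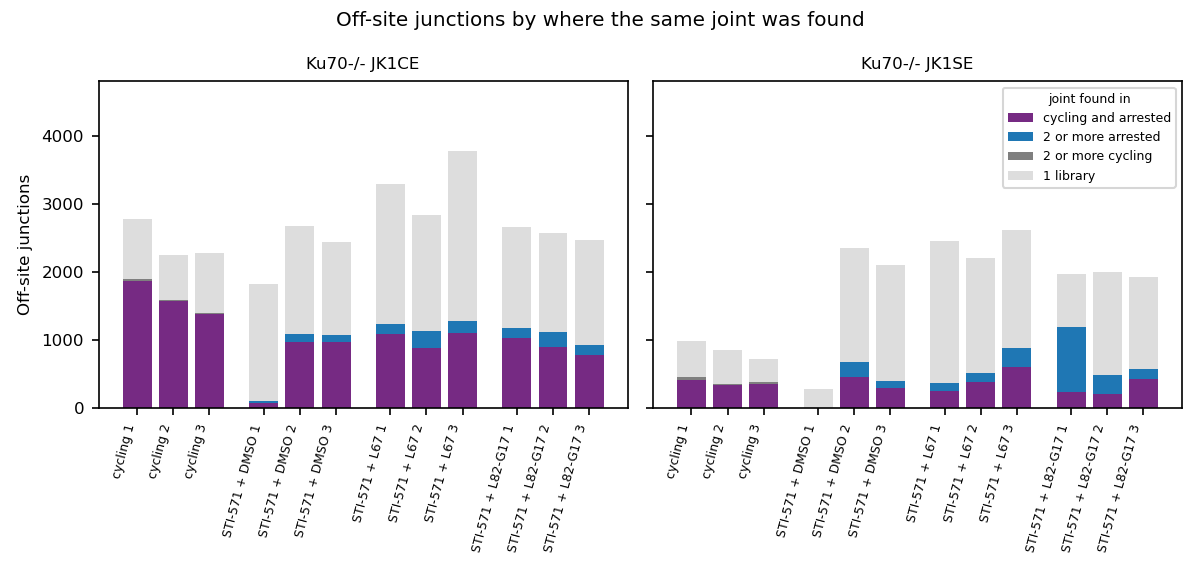
Off-site junctions in each of the 24 Ku70-/- libraries, stacked by where the identical joint was found. Purple joints occur in a cycling and an arrested library, and light grey ones in 1 library. Purple makes up 60.4% to 69.8% of the cycling JK1CE bars, and 775 to 1105 junctions in 8 of the 9 arrested ones.

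The joint at 69598454 was the most even of these. It was found in 12 of 12 Ku70-/- JK1CE libraries, with 101, 110 and 98 junctions in cycling and a median of 77 (25 to 119) in arrested libraries. It lies 363 bp from the site at Igkv4-53, between genes, on the side and strand of a trimmed end, with an 8-bp insertion and 6 bp lost from the bait coding end. The same 8 inserted bases stood in 98.9% of its 983 junctions. The joint at 70114072, found in 11 libraries with a 4-bp overlap and 33 bp lost from the bait, lies 7731 bp from the nearest site, at Igkv8-27. At 70027025, 1491 bp from a site near Igkv6-32, the insertion of 9 bp was followed by prey that holds the same 9 bases again a few bases on, as its letters above show. With JK1SE, the joint at 69537856 lies 568 bp from the site at Igkv4-56 and held 50, 95 and 47 junctions in cycling and a median of 18 (0 to 130) in arrested libraries. All 4 lie between genes and on the side and strand of a trimmed end.

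The off-site positions, joined wherever neighbours lay within 50 bp, formed 2312 clusters. Of these 1492 were found in 1 library and 157 in both genotypes, while 1904 were found only in Ku70-/- and 251 only in WT libraries. Ku70-/- libraries held 52355 of the off-site junctions (90.7%). The 10 clusters with most junctions held 13.2% of all off-site junctions and the first 100 held 45.1%. In arrested WT JK1CE libraries the 10 largest held 58.2%, against 19.6% in arrested Ku70-/- JK1CE libraries. By library, the 10 most used positions held a mean of 64.2% in WT and 25.8% in Ku70-/- cells with JK1CE (difference -38.4 points, exact permutation p = 0.00575, adjusted p = 0.00840). WT libraries had 30 to 106 distinct joints. A library of few distinct joints tends to have a high share of this kind, so the test cannot separate clustering from the number of joints. The Ku70-/- mean was 16.6% without the library of few distinct joints, whose own value was 99.2%, and the difference was then -47.3 (exact permutation p = 0.00025). With sites set at 300 junctions it was -17.3 (exact permutation p = 0.096). All 10 of the largest clusters lay between annotated genes, as did 98.2% of the off-site bases.

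The cluster with most junctions, 1950 at chr6:67863426-67863845, was mostly 1 library. Replicate 1 of STI-571 with DMSO, Ku70-/- JK1CE, held 1404 of them. Without that library the cluster still had junctions in all 8 other arrested Ku70-/- JK1CE libraries (3 to 57 each), in 5 arrested JK1SE libraries, in 6 arrested WT libraries and in no cycling library. It holds 78 different joints, and its most used position lies 520 bp from the site at Igkv11-125. The cluster at chr6:68289398-68289555 (487 junctions, 59 different joints) lies 507 bp from another site. A stretch of 55 bases is the same in both, ending 510 bp from the first site and 505 bp from the second, as the sequences above show in part. Both clusters lie at nearly the same distance from a site.

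The pair of clusters at chr6:67590972-67591270 and chr6:67591457-67591611 lies 30697 and 31033 bp from the nearest site at Igkv1-135. They held 995 and 481 junctions and 94 and 62 different joints, with 26.0% and 49.9% on the plus strand, so prey ran in both directions. The first had junctions in 8 of 9 arrested Ku70-/- JK1CE libraries (331 in all) and 9 of 9 arrested JK1SE libraries (648), in 3 arrested WT libraries (16) and in no cycling library. At its most used position the bases kept as prey end, on the plus strand, in the letters CACAGTG, so the last base of that motif adjoins the break. The prey there is on the minus strand, and read from the joint it starts with the letters CAC. Insertions were 0.302% of its junctions and direct joints 48.1%, unlike the recurrent joints. The cluster at chr6:67631638-67631780, 4976 bp from a site, was found only in arrested Ku70-/- libraries, 8 with JK1CE and 6 with JK1SE. It held 602 junctions (37.7% on the plus strand) and 65 joints, beside a run of alternating T and G. At its most used position, and at that of the second cluster of the pair, the prey read from the joint also starts with CAC. At the most used positions of the rest of the 10 largest clusters CAC did not meet the break.

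The cluster at chr6:69292465-69292517 was led by WT cells. It held 360 junctions in arrested WT JK1CE libraries, in 9 of 9, as 112 different joints, and 98.6% had an insertion and 89.4% a prey with over 1 mismatch per 100 bases. In arrested Ku70-/- cells it held 86 junctions with JK1CE and 44 with JK1SE, of which 57.0% and 54.5% had an insertion and 65.1% and 52.3% a mismatched prey. A second cluster of this kind, at chr6:70055842-70055950, was singled out after its values were seen. It held 258 junctions in arrested WT JK1CE libraries, 95.7% with an insertion and 96.9% with a mismatched prey. The pair made up 36.9% of the off-site junctions of arrested WT JK1CE cells.

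**Figure D5:**
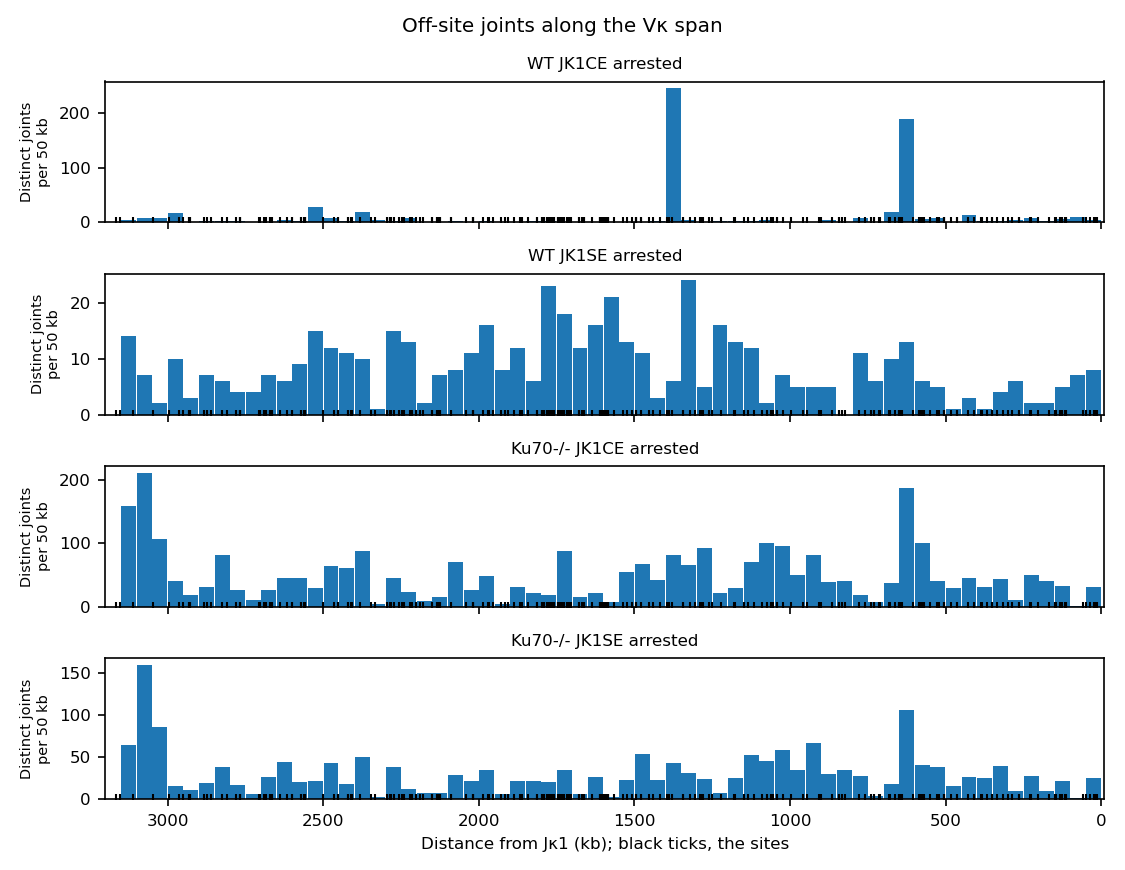
Distinct off-site joints per 50 kb (libraries of a class summed, each joint once per library) against distance from Jκ1, for arrested libraries of each genotype and bait. Black ticks are the 248 sites, and the vertical axes differ. WT JK1CE has peaks of 246 and 190, at the clusters of mismatched prey, while Ku70-/- joints spread over the span with their highest bars at 3050 kb (211 with JK1CE).

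Some junctions of arrested cells met the letters of a heptamer where no site had been set. CACAGTG was searched on both strands, and its first base adjoins 0.0154% of off-site break positions and lies within 10 bp of 0.324%. Among different off-site joints it lay within 10 bp in 9.96% in arrested WT JK1SE, 19.4% in arrested WT JK1CE, 2.53% in arrested Ku70-/- JK1CE and 4.15% in arrested Ku70-/- JK1SE libraries. In cycling Ku70-/- libraries it was 0.372% with JK1CE and 0.0% with JK1SE. The first 3 letters alone, CAC, which hold every CACAGTG too, met the break in 35.7% of the different off-site joints of arrested WT JK1SE cells and in 17.9% with JK1CE. They did so in 6.65% and 5.87% in arrested Ku70-/- cells with JK1CE and JK1SE, and in 2.42% and 2.22% in cycling ones, against 2.65% of all off-site break positions. At the 248 sites CAC met the break in 66.9% and CACAGTG in 44.8%. These shares are descriptions, since positions of the WT JK1SE libraries chose the sites.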

How the data were processed

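Per the labels, genomic DNA of 48 HTGTS-JoinT-seq libraries was compared, and groups come from the genotype, treatment and bait labels. The authors took each library down to 500000 read pairs, mapped them to mm9 with duplicates kept (Bowtie2 is the tool named in the submitters' processing notes) and deposited lists with 1 junction per line. Their positions, strands and alignment ends are other values than counts. Every number, percent and log2 value here was computed from the deposited lists. Chromosome 6 (149517037 bases) and gene positions are those of NCBIM37, the same assembly as mm9, with GENCODE gene models. Distinct joints share library, prey position, strand, bait end and overlap, so joining events that match in every one of them count once. Groups were compared with exact two-sided permutation tests within strata, or sign flips over libraries, tested on simulated data, with Benjamini-Hochberg adjustment over 19 tests (Python 3.11.15, numpy, pandas). Clusters described are the 10 with most junctions and the 3 with most found in 1 genotype only, which are among those 10. The sites, the members and these lists were chosen with earlier results of these data known. Alternatives were distinct joints, other site and distance limits, a library or the largest cluster left out and, added after seeing the data, mismatched prey left out. The authors' lists give no replicate numbers; replicates are numbered in accession order, and the numbers were not used to pair samples. Both baits were primed on DNA of the same treatment conditions, so libraries of the 2 baits may share DNA.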

Additional observations from a re-analysis of the deposited data

How the results depend on the processing

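The 19 tested differences were recomputed under 141 alternatives that did not leave out single replicates, of which 120 kept direction and side of the threshold, and by leaving out each library, of which 277 of 291 did. Distinct joints differed by 0.87 (log2) with sites of 300 junctions. Arrested minus cycling with JK1CE passed the threshold at -13.6 with sites of 10 junctions, -14.6 with 300 and -14.2 without mismatched prey (-14.8 to -13.9 leaving out 1 library, passing without cycling WT replicate 2 or 3). L67 minus DMSO was 0.171 without the libraries of few distinct joints and 0.211 to 0.446 leaving out 1 library, with the exact p above 0.05 in 8 of 18 cases (Ku70-/- JK1CE DMSO replicates 1 and 3 and L67 replicates 1 and 3, JK1SE DMSO replicate 1 and L67 replicates 1, 2 and 3). L82-G17 minus DMSO was 0.291 by distinct joints and 0.195 over 1000 bp from sites. The plus strand call was lost at -5.06 with sites of 10 junctions, -13.0 over 1000 bp and -6.68 without the largest cluster, and the sign turned to 11.9 without mismatched prey. The top 10 positions call was lost at -17.3 with sites of 300 junctions. Direct joints differed by 8.73 by distinct joints, -11.9 with sites of 10 junctions, -7.99 over 1000 bp, -8.83 without the largest cluster, -17.1 without mismatched prey and -7.26 without the library of few distinct joints (-7.26 to 2.05 leaving out 1 library, above 0 without Ku70-/- DMSO replicate 2 at 1.89, replicate 3 at 2.05 and WT L82-G17 replicate 1 at 1.06). Insertions differed by -1.67 without mismatched prey. The call for off-site minus near-site microhomology was lost at 2.00 in WT JK1CE by distinct joints and at 5.30 in Ku70-/- JK1CE for overlaps of 1 bp or more. The causes were not tested. Libraries of different groups could not be paired because the labels carry no replicate numbers that tie them. Off-site and near-site values were compared within each library. With 0 to 44 off-site junctions each, cycling WT libraries allow no account of structure, although they held 19376 to 29429 junctions near sites.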

Other observations

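Annotated exons took 6.26% of off-site junctions in arrested Ku70-/- JK1CE and 7.38% in JK1SE libraries, with introns taking 3.09% and 5.79%, while exons and introns make up 0.521% and 1.31% of off-site bases. In arrested WT libraries exons took 2.21% with JK1CE and 2.73% with JK1SE, and introns 0.956% and 1.11%, below their share of bases.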
